A study of Mus musculus with 16 samples.

Results

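Wild-type mouse embryonic fibroblasts labelled S, meaning synchronised in the S phase of the cell cycle, were compared with cycling wild-type fibroblasts of the same study. The comparison uses 5 of the 16 arrays of the series, the 2 arrays of Wt_S and the 3 arrays of Wt_cycling, chosen by their titles. The study isolated fibroblasts from embryos of Hmgb1+/- mothers crossed with Hmgb1+/- males, with 3 mothers in all, and cultured them for no more than 3 passages. The wild-type cells (Wt) carry Hmgb1 and the knockout cells (KO) are Hmgb1-/-, and each genotype was also measured in cells labelled G1. No strain, age, number of embryos pooled or added agent is given in the labels for any group, and the way the S and G1 cells were synchronised is not given in the sources used here. A cycling culture is a mixture of cells in every phase. A synchronised one is enriched for 1 phase, and many methods of synchronisation first arrest growth, by serum withdrawal, crowding or a block of DNA synthesis.

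Expression was read on Illumina bead arrays, on which each transcript is measured by 1 or more probes of fixed sequence. Values below are normalized log2 intensities, so that a difference of 1 is a doubling, and they are given array by array in replicate order. A probe was called where the adjusted p of the limma model was under 0.05. Mean raw intensity was 658, 519 and 613 on the cycling arrays and 705 and 697 on the S arrays. All 15 fibroblast markers on the list, among them collagens, Pdgfra, Thy1 and Vim, were detected on all 5 arrays. The 1 probe for Hmgb1 was detected on none of the 5 arrays, with levels from 4.57 to 5.29, and so could not check the genotype label.

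The arrays differ in ways that bear on every result below. The S arrays lay on slide 2 and the cycling arrays on slide 1, so no value within a slide can be had, and slide and phase can be separated only through the G1 arrays, of which numbers 1 and 2 lay on slide 2 and number 3 on slide 1. The 2 S arrays were nearly alike, with a Pearson correlation over 12078 probes of 0.9947, and the knockout S pair was as close, at 0.9944. The 12 pairs of arrays within the cycling and G1 groups ranged from 0.8812 to 0.9914. The design text calls the replicates biological, with S in duplicate, but gives no mother or culture for a single array. How far the S pair shows the spread between cultures is thus not known. The p-values rest on 1 estimate of spread per probe, shared by all 6 groups, and not on the S pair alone. Cycling replicate 3 stood apart from cycling replicates 1 and 2 (correlations of 0.9513 and 0.9414, against 0.9843 between those). Its mean over the oxidative phosphorylation genes was 9.67, against 11.19 and 11.21 on the other cycling arrays and 11.08 on each S array. It was also the only one of the 5 on which the X-linked RNA Xist was detected, and the Y-linked gene Eif2s3y was at 4.64 there and from 11.18 to 11.41 on the other 4. Xist was detected on G1 replicates 2 and 3 as well, with Eif2s3y at 4.33 and 4.84, and not on G1 replicate 1. Markers of macrophages and other leukocytes were higher on both S arrays, and their values stand beside the inflammatory genes below.

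**Figure D1:**
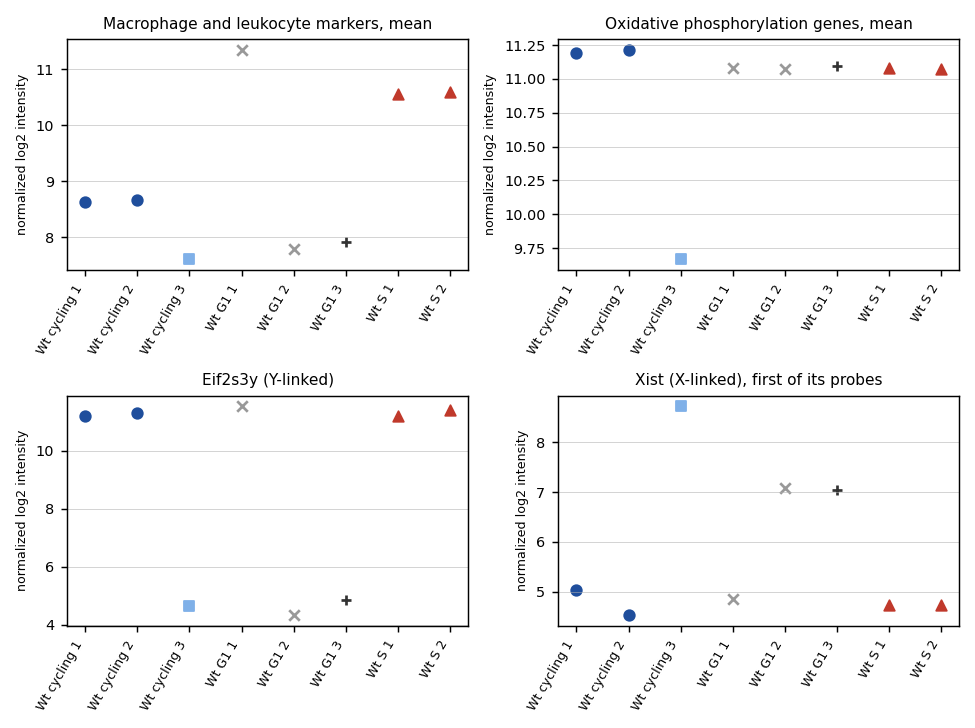
Normalized log2 intensity on each wild-type array (x axis) of the mean over 13 macrophage and leukocyte markers, the mean over 55 oxidative phosphorylation genes, Eif2s3y and Xist; the y axes do not start at 0. The marker mean is 7.61 to 8.66 on the cycling arrays and 10.56 and 10.59 on the S arrays, and cycling replicate 3 differs from cycling replicates 1 and 2 in all 4 panels.

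Of 12078 probes tested, 298 (2.47%) were called between S and cycling cells. Of these, 200 were higher and 98 lower in S. They covered 252 named genes, and 169 of the 8428 genes tested (2.01%) had a probe that was higher and 83 (0.985%) a probe that was lower. The values of the S and cycling arrays did not overlap at any of the 298. This alone is common here, since 5097 of all probes tested (42.2%) had no overlap, 2371 with S above and 2726 with S below. At an unadjusted p under 0.05 there were 1937 probes. With slide added as a term, 21 probes (0.174%) were called, 20 higher and 1 lower, and all 298 kept their direction. The slide term rests on the G1 arrays, and without those numbered 1, a setting chosen after seeing the data, it gave 348 calls, of which 158 were among the 298. The 5 arrays fitted alone gave 445 calls, of which 185 were among the 298. Averaging the S arrays to 1 left 16 calls, all higher in S, and leaving out S replicate 1 or 2 left 36 or 28. Where a gene held its call in every setting, the text says so.

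The 12 genes with the largest rises include the matrix genes Lum, Mfap4 and Dpt, secreted proteins such as Cxcl15 and Igfbp3, and the membrane proteins Fibcd1, Dlk1 and Cd83. Fibroblasts build and remodel the matrix of connective tissue. The small leucine-rich proteoglycans lumican, decorin, PRELP and podocan coat collagen fibrils, and elastin with the microfibril proteins forms the elastic fibre. Promoters are given for genes of opposite direction, the stromelysin Mmp3 among those that rose and enzymes of sterol synthesis among those that fell, because both groups have promoter elements known from textbooks.

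The sequences are the 250 bases before the transcript start, on the gene's own strand, from RefSeq (GRCm38.p6). The AP-1 site, bound by Fos and Jun proteins, was searched as TGANTCA, which reads the same on both strands, and is in capitals in the Mmp3 promoter, beginning at position -46. It is present in 6.75% of the 32851 promoters of this length.
Mmp3, chr9:7445572-7445821, plus strand: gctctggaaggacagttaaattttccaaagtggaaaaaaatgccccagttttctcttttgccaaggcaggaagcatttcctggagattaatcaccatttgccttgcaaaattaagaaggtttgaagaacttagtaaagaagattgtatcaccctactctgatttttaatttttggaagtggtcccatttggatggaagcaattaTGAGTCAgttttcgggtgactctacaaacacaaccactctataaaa
The CCAAT box, bound by the factor NF-Y, which works with sterol-regulated SREBP factors at many genes of this pathway, was searched as CCAAT on both strands and is in capitals, as CCAAT or ATTGG. It is present in 33.8% of promoters. Of the 6 sterol genes called, 5 were searched, and all 5 held it. The promoter of the other, Stard4, was left out of the search, so whether it holds the box is not known here. The 5 are thus not all the sterol genes called, and their count cannot be set against the 33.8%. The box begins at -216 in Insig1, at -60 and -27 in Mvd and at -109 and -20 in Nsdhl. In Lss it begins at -62 and in Cyp51 at -29.
Insig1, chr5:28071162-28071411, plus strand: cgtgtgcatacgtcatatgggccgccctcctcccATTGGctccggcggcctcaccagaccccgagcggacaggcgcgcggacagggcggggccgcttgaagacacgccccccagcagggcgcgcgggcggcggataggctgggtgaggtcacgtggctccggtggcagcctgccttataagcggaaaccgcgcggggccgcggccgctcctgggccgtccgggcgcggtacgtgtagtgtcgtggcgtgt
Mvd, chr8:122443423-122443672, minus strand: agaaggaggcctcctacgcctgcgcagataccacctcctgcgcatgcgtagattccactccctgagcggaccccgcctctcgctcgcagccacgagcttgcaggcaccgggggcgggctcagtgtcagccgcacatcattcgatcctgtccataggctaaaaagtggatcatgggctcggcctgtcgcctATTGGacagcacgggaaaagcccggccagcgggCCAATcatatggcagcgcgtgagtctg
Nsdhl, chrX:72918271-72918520, plus strand: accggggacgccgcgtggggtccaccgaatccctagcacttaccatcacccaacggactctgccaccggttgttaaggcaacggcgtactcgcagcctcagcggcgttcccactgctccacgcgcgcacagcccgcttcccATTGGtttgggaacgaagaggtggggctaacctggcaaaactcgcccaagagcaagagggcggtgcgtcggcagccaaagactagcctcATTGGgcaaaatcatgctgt
Lss, chr10:76531355-76531604, plus strand: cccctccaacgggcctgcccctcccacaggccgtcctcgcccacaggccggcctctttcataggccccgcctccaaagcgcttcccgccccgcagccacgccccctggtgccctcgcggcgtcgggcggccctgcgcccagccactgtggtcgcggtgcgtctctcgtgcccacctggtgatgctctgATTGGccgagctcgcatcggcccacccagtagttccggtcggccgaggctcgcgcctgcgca
Cyp51, chr5:4104698-4104947, minus strand: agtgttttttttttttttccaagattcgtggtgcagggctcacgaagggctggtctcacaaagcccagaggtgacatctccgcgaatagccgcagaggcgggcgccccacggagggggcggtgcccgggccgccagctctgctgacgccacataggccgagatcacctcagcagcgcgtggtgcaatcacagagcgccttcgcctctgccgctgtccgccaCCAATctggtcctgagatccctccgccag
A match is a description of these letters and says nothing of binding in these cells.

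Matrix genes among the named rises include lumican and decorin. Lum was at 6.74, 7.02 and 6.49 in cycling cells and at 11.38 and 11.35 in S, a difference of 4.62 ± 0.46 (SE; adjusted p = 0.000172). Dcn was at 11.79, 11.87 and 11.15 in cycling cells and at 13.90 and 14.15 in S, a difference of 2.42 ± 0.39 (adjusted p = 0.00585). Every S value of both lay above every cycling value, by more than the spread of the cycling arrays. The other Dcn probe differed by 2.98. Mfap4, a microfibril-associated glycoprotein, was at 6.70, 6.35 and 7.18 in cycling cells and at 10.27 and 10.38 in S (difference 3.58 ± 0.33, adjusted p = 0.000116). Prelp was at 10.41, 10.75 and 9.88 in cycling cells and at 13.17 and 13.16 in S (difference 2.82 ± 0.50, adjusted p = 0.01). Lum and Mfap4 were called in every alternative in which they were tested, slide and averaged S arrays included, while Dcn and Prelp were not called with slide as a term (adjusted p of 0.18 and 0.281).

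Of 39 tested genes of proteoglycans, elastic fibre and matrix glycoproteins, 7 rose and none fell, yet the median over the list was 0.02, against -0.0038 over all 8428 genes. The rest of the 7, beyond the rule by which genes are named and chosen after their values were seen, were Eln, Podn and Ltbp4. Eln, which encodes elastin, was at 7.08, 6.64 and 8.40 in cycling cells and at 10.44 on both S arrays (adjusted p = 0.0155). Podn was detected on no cycling array and on both S arrays, at 6.63 and 6.42, at least 1.93-fold higher (adjusted p = 0.0332). Ltbp4, a binding protein of latent TGF-beta, differed by 1.36 and 1.37 at its probes. Of 20 collagen genes only Col6a2, a chain of type VI collagen, was called, at 9.59, 9.40 and 9.71 in cycling cells and 10.71 and 10.69 in S (adjusted p = 0.00748). The fibrillar collagen gene Col3a1 was at 8.99, 9.64 and 9.71 and at 10.89 and 10.76 (adjusted p = 0.186). The collagens had a median of 0.19, and of 0.37 without cycling replicate 3.

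Cxcl15 had the largest difference of the named genes, followed by Lum, Fibcd1 and Ecrg4. Cxcl15, a chemokine, was detected on 1 of 3 cycling arrays, at 4.79, 4.75 and 5.92, and was at 9.99 and 9.95 in S (difference 4.82 ± 0.36, adjusted p = 1.19e-05). Ecrg4, which encodes a secreted peptide precursor, was at 6.86, 6.90 and 5.77 in cycling cells and at 10.90 and 10.82 in S (difference 4.34 ± 0.34, adjusted p = 1.78e-05). Serpina3n, a secreted inhibitor of serine proteases, was detected on no cycling array and at 8.31 and 8.15 in S, at least 6.27-fold higher (adjusted p = 1.19e-05). In each of these genes the gap between the groups was several times the range within either. Fibcd1, a membrane receptor that binds acetylated sugars, was likewise detected on no cycling array and was at 9.74 and 9.50 in S, at least 16.5-fold higher (adjusted p = 1.79e-06). Cxcl15, Ecrg4, Serpina3n and Fibcd1 were called in every alternative in which they were tested.

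The 12 largest rises also include Apod, Pltp, Dpt and Cd83. Apod, which encodes apolipoprotein D, was detected on no cycling array and was at 8.27 and 8.18 in S, at least 6.24-fold higher (adjusted p = 0.00437). Pltp, the phospholipid transfer protein, was at 5.80, 5.80 and 6.64 in cycling cells, detected on 2 of 3, and at 9.80 and 9.77 in S (adjusted p = 0.00272). Its other probe differed by 0.46 (adjusted p = 0.716), so the probes of this gene disagree. Dpt, dermatopontin of the skin matrix, was at 6.31, 6.56 and 5.09 in cycling cells and at 9.41 and 9.59 in S (adjusted p = 0.0373). Cd83, a surface protein of activated immune cells, was detected on 1 of 3 cycling arrays and differed by 3.26 (adjusted p = 0.0019). None of these held its call with slide as a term.

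**Figure D2:**
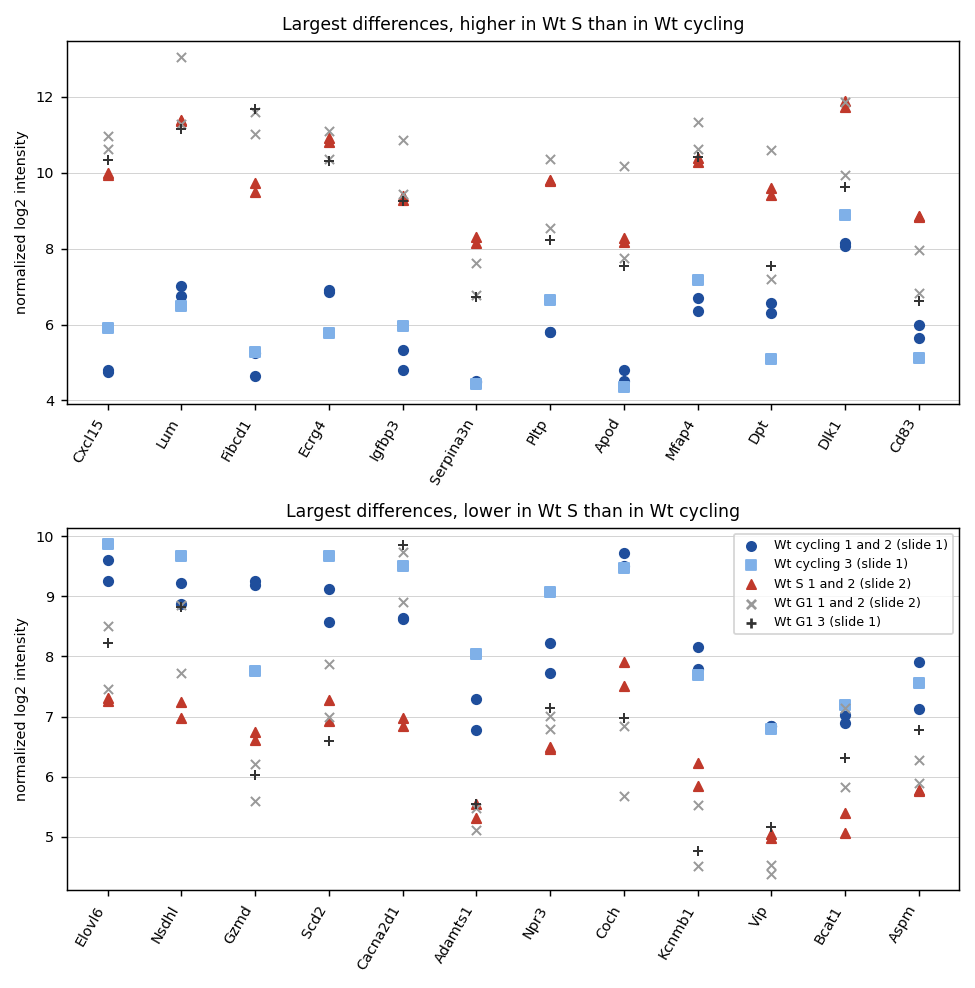
Normalized log2 intensity (y axis, not from 0) on the 8 wild-type arrays of the 12 named genes with the largest rises and the 12 with the largest falls from cycling to S, ordered by size. The S arrays lie apart from the cycling arrays in every gene shown, as the rule of choice required. For all 12 genes in the upper panel the G1 arrays of both slides also lie above the cycling arrays, on which the genes were chosen.

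The wild-type G1 arrays give these rises a setting. At each of the 12 genes with the largest rises, all 3 G1 arrays lay above all 3 cycling arrays, G1 replicate 3 on the slide of the cycling arrays included. Lum was at 13.04, 11.27 and 11.16 in G1 and Fibcd1 at 11.01, 11.60 and 11.67. Between S and G1, 209 probes (1.73%) were called, 98 higher and 111 lower in S. Fibcd1 was lower in S than in G1 by a log2 difference of -1.80 (adjusted p = 0.0074), and the S to G1 difference of Lum was -0.46 (adjusted p = 0.726). The S arrays enter both comparisons. The cycling arrays used to choose the 12 genes are also those set beside G1, so the choice favours this count. The share over all genes is not given, and the count cannot separate slide from phase. G1 was not tested against cycling here.

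Proteases of the matrix and their inhibitors moved in both directions. Mmp3, which encodes stromelysin 1, was at 8.86, 8.90 and 9.59 in cycling cells and at 11.73 and 11.76 in S, a difference of 2.63 ± 0.25 (adjusted p = 0.000116). All 3 of its probes were called, and it was called in every alternative run. Timp3, an inhibitor of such proteases bound to the matrix, was at 12.09, 12.19 and 12.42 in cycling cells and at 13.92 and 13.93 in S (difference 1.69 ± 0.23, adjusted p = 0.0019). Both genes thus had higher levels on each S array than on any cycling array. Adamts1, a protease that cuts proteoglycans, fell from 6.77, 7.30 and 8.04 to 5.54 and 5.31 (difference -1.95 ± 0.37, adjusted p = 0.0153). The collagenase gene Mmp13 differed by 1.68 and was not called (adjusted p = 0.0553). In all, 2 of the 22 tested genes of this list rose and 1 fell, with a median of 0.33.

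Growth factor systems of fibroblasts also changed at single members. Insulin-like growth factor signals are held in check by binding proteins, of which Igfbp3 was at 4.79, 5.34 and 5.96 in cycling cells, detected on 1 of 3, and at 9.38 and 9.27 in S (difference 3.96 ± 0.54, adjusted p = 0.00172). Igfbp5 went the other way, from 12.55, 12.61 and 12.99 to 11.41 and 11.44 (difference -1.29 ± 0.29, adjusted p = 0.0319). Irs2, a substrate of the insulin receptor, fell from 8.85, 9.08 and 8.84 to 7.47 and 7.51 (difference -1.43 ± 0.25, adjusted p = 0.00924). With Igfbp6 (difference 2.09, adjusted p = 0.0497), 2 of 12 tested genes of this family rose and 2 fell. Tgfbi, a matrix protein named for its induction by TGF-beta, was at 9.89, 9.90 and 10.26 in cycling cells and at 12.14 and 12 in S (difference 2.05 ± 0.22, adjusted p = 0.000357). It was called in every alternative run. Fst, which encodes the activin antagonist follistatin, rose by 1.31 ± 0.27 (adjusted p = 0.0217), and these were the only 2 of 24 genes called on the TGF-beta and BMP list, whose median was 0.08. Wnt2, a Wnt ligand, was at 6.77, 6.73 and 7.37 in cycling cells and at 8.89 and 9.17 in S (difference 2.08 ± 0.27, adjusted p = 0.00116), and stayed past the threshold with slide as a term (adjusted p = 0.0169). Notch3, a Notch receptor, differed by 1.25 (adjusted p = 0.0196). The remaining 24 of 26 tested Wnt and Notch genes were not called.

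Of 14 imprinted genes tested, expressed from the copy of 1 parent, 2 rose. Dlk1, which encodes a membrane protein related to Notch ligands, was at 8.07, 8.15 and 8.89 in cycling cells and at 11.88 and 11.73 in S (difference 3.44 ± 0.56, adjusted p = 0.00643). No cycling array detected Slc22a18, a transporter, whose level in S was higher by at least 3.2-fold (adjusted p = 0.00537). Cdkn1c, an imprinted inhibitor of cyclin-dependent kinases, was at 8.95, 9.28 and 8.74 in cycling cells and at 11.11 and 10.97 in S and just missed the threshold (difference 2.05 ± 0.51, adjusted p = 0.0531). It was higher still in G1, at 13.88, 11.81 and 11.72.

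Enzymes of lipid synthesis were the main named group that was lower. Cells make cholesterol by a chain of enzymes whose genes are switched on together when membrane sterol is low, and the protein Insig1 feeds back on this switch. Of 18 tested genes of sterol synthesis 6 fell and none rose, with a median of -0.94, and 17 of the 18 had a negative difference. Insig1 was at 10.69, 10.37 and 10.81 in cycling cells and at 9.02 and 9.08 in S (difference -1.57 ± 0.26, adjusted p = 0.00645), and all 3 of its probes were called. Mvd, which makes an isoprenoid precursor, was at 8.34, 8.07 and 7.47 and at 6.49 and 6.37 (difference -1.53 ± 0.27, adjusted p = 0.00923). Both groups were separate on every array for these genes. Nsdhl, an enzyme of a late step, was at 8.39, 8.75 and 9.05 and at 6.71 and 6.66 at its probe of lowest p (difference -2.05 ± 0.39, adjusted p = 0.0148), and 3 of its 4 probes were called. Lss, which closes the sterol rings, was at 9.80, 9.90 and 8.84 and at 7.83 and 7.95 (adjusted p = 0.0292). The other members called, named after their values were seen, were Cyp51 and the sterol carrier gene Stard4, with differences of -1.08 and -1.29. Hmgcs1, Fdps and Idi1, of the early pathway and also chosen after their values were seen, had differences of -1.17, -1.42 and -1.29 that were not called (adjusted p of 0.105, 0.157 and 0.0509), and Srebf2, which encodes the regulator SREBP2 and was chosen in the same way, differed by -0.47 (adjusted p = 0.213).

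Genes of fatty acid synthesis had a median of -0.53, and 3 of 12 fell and none rose. Elovl6, which lengthens saturated fatty acids, was at 9.60, 9.25 and 9.87 in cycling cells and at 7.31 and 7.26 in S, the largest fall of a named gene (difference -2.28 ± 0.28, adjusted p = 0.000887). Scd2, a desaturase, was at 9.13, 8.57 and 9.67 and at 7.27 and 6.92 (difference -2.03 ± 0.39, adjusted p = 0.0149). Its relative Scd1 was at 10.91, 11 and 11.05 and at 10.08 and 10.19 (difference -0.85 ± 0.18, adjusted p = 0.0262). The S arrays were below all cycling arrays in these 3 genes. Fads1, a desaturase of long chains, differed by -0.64 and was not called (adjusted p = 0.102).

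With slide as a term over all 16 arrays none of the 9 lipid genes stayed past the threshold, although their directions were the same. With the G1 arrays numbered 1 left out of that fit, Elovl6, Insig1, Mvd and Nsdhl were called, and Lss, Scd1 and Scd2 were not. Over all 16 arrays the difference of Insig1 with slide was -1.56 (adjusted p = 0.142) and that of Elovl6 -2.19 (adjusted p = 0.0641), and the medians were -0.79 for sterol and -0.74 for fatty acid synthesis. At 9 of these 9 genes, G1 replicate 3, which shares the slide of the cycling arrays, lay below all 3 cycling arrays. For 8 of the 9 all G1 arrays did. The exception was Nsdhl, with 8.52 on G1 replicate 2. The cycling values used to choose these genes enter this too, so the choice favours these counts. The share over all genes is not given, and the counts cannot separate slide from phase. Without cycling replicate 3 the medians were -1 and -0.40.

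**Figure D3:**
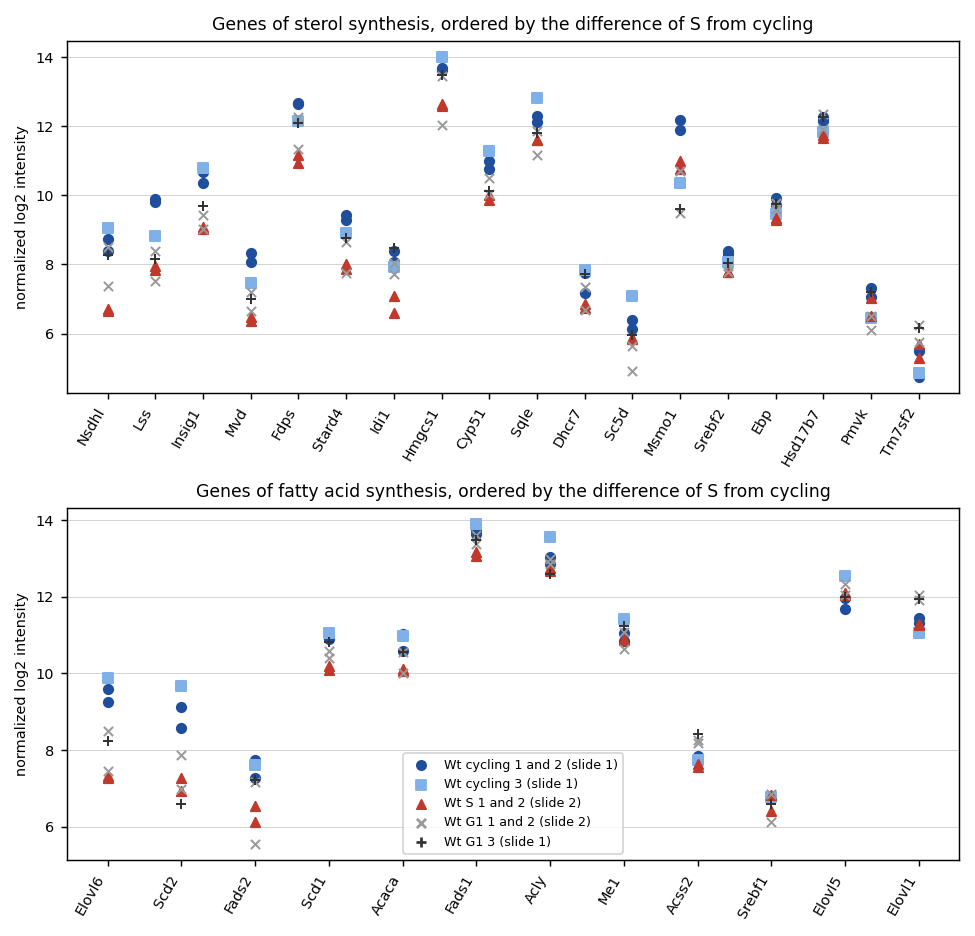
Normalized log2 intensity (y axis, not from 0) on the 8 wild-type arrays of the 18 sterol and 12 fatty acid synthesis genes. They are ordered by the difference of S from cycling. Genes called or named by the rule are shown by their probe of lowest p, and the others by their brightest probe. Most points of the S arrays lie below the cycling arrays, widest apart for Nsdhl, Lss, Insig1 and Mvd in the upper panel and for Elovl6 and Scd2 in the lower.

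Other named falls were spread over several functions. Vip, which encodes a neuropeptide, was at 6.84, 6.84 and 6.80 in cycling cells and was not detected in S, at least 3.16-fold lower (adjusted p = 0.00138). Cacna2d1, a calcium channel subunit, was at 8.64, 8.62 and 9.50 and at 6.97 and 6.85 (difference -2.01 ± 0.34, adjusted p = 0.00838). Cacna2d1 was lower in S than in G1 as well, by -2.59 (adjusted p = 0.00423), since the G1 arrays were at 8.90, 9.73 and 9.86. Kcnmb1, a subunit of a calcium-activated potassium channel, fell by 1.84 (adjusted p = 0.0149) and Npr3, the clearance receptor of natriuretic peptides, by 1.87 (adjusted p = 0.0437). Coch and Gzmd, which encode a secreted matrix protein and a granule protease, fell by 1.87 and 2.05 (adjusted p of 0.0311 and 0.033), and the other probe of Gzmd was not called. Bcat1, the cytosolic aminotransferase of branched-chain amino acids, fell by 1.81 (adjusted p = 0.00923), with 2 of its 3 probes called. Mthfd2, a mitochondrial enzyme of folate metabolism, fell by 1.16 (adjusted p = 0.0311), and was the only gene called of 21 of the amino acid response. Bhlhe40, a repressor tied to the circadian clock, and the only gene called of 13 on the clock list, was at 12.45, 12.44 and 12.42 in cycling cells and at 11.06 and 11.14 in S (adjusted p = 0.0156). The hypoxia-responsive peptide gene Adm was the only one called of 25 genes of glycolysis and hypoxia (difference -1.29, adjusted p = 0.039).

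Genes of the cell cycle itself were not called as groups. DNA replication genes are switched on by E2F factors late in G1 and used in S, and spindle genes peak in G2 and mitosis. Of 44 tested genes of replication and nucleotide supply none was called in either direction, and their median was 0.00. Mcm2, a subunit of the replicative helicase, was at 8.65, 8.85 and 8.94 in cycling cells and at 8 and 8.16 in S (difference -0.74, adjusted p = 0.143). Tk1 and Cdc6, for thymidine salvage and origin licensing, had differences of -0.77 and -0.63, and the methyltransferase gene Dnmt1 -0.46 (adjusted p of 0.107, 0.229 and 0.222). At these probes of lowest p the S arrays lay below the cycling arrays, while the other Tk1 probe differed by -0.05. Against G1, the same list had a median of 0.68 with 4 genes called higher in S and none lower, among them Ccne2, a cyclin of the G1 to S step (difference 1.26, adjusted p = 0.0409), and the helicase gene Mcm5 (0.82, adjusted p = 0.0391), both named after their values were seen. Of 12 tested E2F factors, pocket proteins and partners none was called between S and cycling, with differences from -0.73 (E2f3) through 0.05 (E2f1) to 0.78 (E2f2) and a median of 0.06.

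Spindle and mitosis genes were lower at the median. None of 36 was called, their median was -0.32, and 30 had a negative difference. Bub1b, a spindle checkpoint kinase, was at 7.29, 7.28 and 7.09 in cycling cells and at 6 and 6.16 in S (difference -1.14 ± 0.31, adjusted p = 0.072). Kif2c and Anln, of the kinetochore and the cleavage furrow, had differences of -1.16 and -1.02, and the mitotic transcription factor Foxm1 -0.77 (adjusted p of 0.111, 0.147 and 0.113). Aspm, a spindle pole protein that is not on the list but is among the 12 largest falls, was called, at 7.12, 7.90 and 7.56 in cycling cells and 5.76 and 5.77 in S (difference -1.76 ± 0.32, adjusted p = 0.0129). With slide as a term the list's median was -0.07 and Aspm was not called (adjusted p = 0.341). Without cycling replicate 3 the median was -0.30.

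Histone genes, which S-phase cells transcribe in bulk, gave no call among 36 tested, and many of these transcripts lack the poly(A) tail by which this labelling usually primes. Their median of 0.46 fell to 0.08 without cycling replicate 3, on which the mean of the list was 7.96, against 9.03 and 9.10 on the other cycling arrays and 9.16 and 9.13 in S. H2ac11 was at 8.19, 7.6 and 5.39 and at 9 and 9.16 (adjusted p = 0.222). The same array moved the oxidative phosphorylation genes, from a median of 0.44 to -0.11 without it, and the cytosolic ribosomal proteins, from 0.22 to -0.19. None of 55 and none of 52 genes on these lists was called.

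Among D cyclins, G1 kinases and inhibitors of cyclin-dependent kinases, 1 of 14 rose. Cdkn1a, the p53 target that encodes p21, was at 9.93, 9.93 and 10.29 in cycling cells and at 10.98 and 11.02 in S at the probe that was called (difference 0.95 ± 0.20, adjusted p = 0.0229). Its other probes differed by 0.54 and 0.52 and were not called. Ccnd1, which encodes cyclin D1, was at 12.70, 12.56 and 11.99 and at 13.25 and 13.17 (difference 0.79, adjusted p = 0.0957). Ccnd2, Ccnd3 and the cyclins Ccng1 and Ccng2 differed by 0.15, 0.30, -0.13 and 0.83. The inhibitors Cdkn2a, Cdkn2b, Cdkn2c and Cdkn2d differed by -0.26, -0.51, 0.59 and -0.15, and Cdk2, Cdk6 and the phosphatase gene Cdc25a by -0.83, -0.25 and -0.55, none of them called. Of 27 p53 targets 2 rose, Cdkn1a and the phosphatase gene Ppm1d, at 8.99, 9.23 and 9.30 and at 10.24 and 10.10 (difference 1 ± 0.22, adjusted p = 0.033), and the list's median was 0.30. Neither was called with slide as a term (adjusted p of 0.203 and 0.442).

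**Figure D4:**
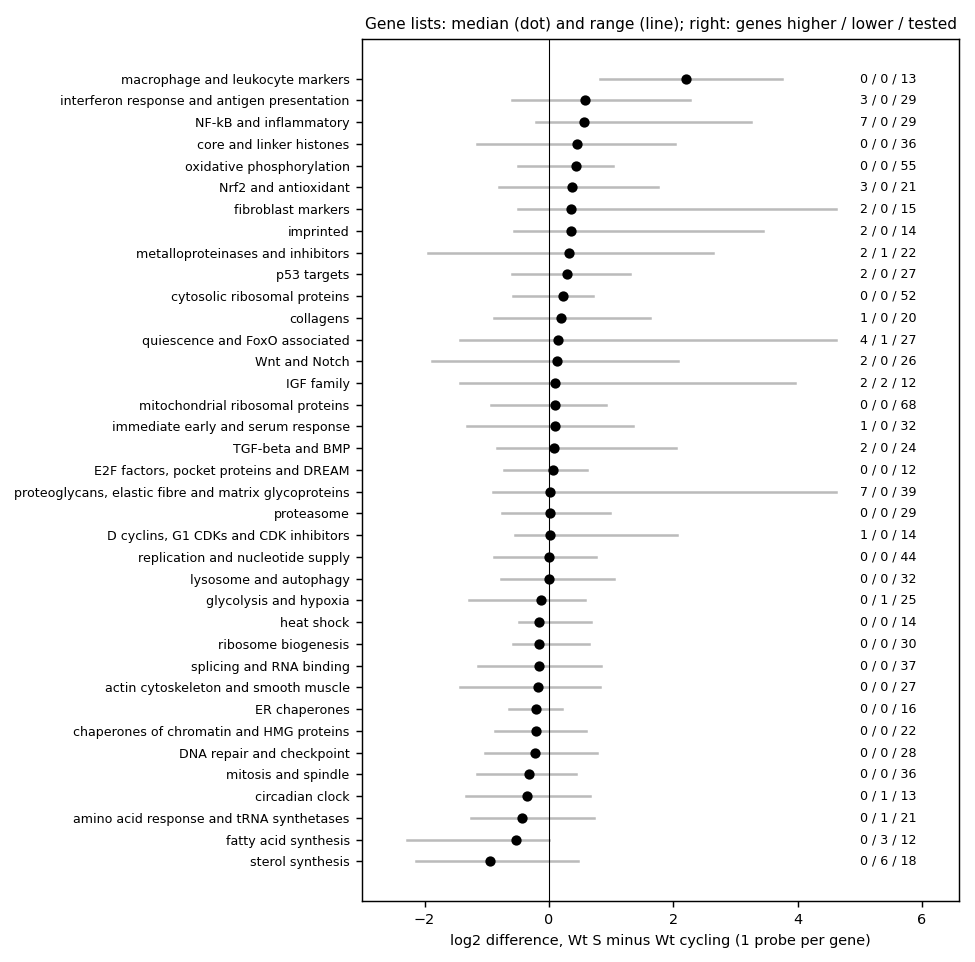
Gene lists with at least 10 tested genes: the median (dot) and range (line) over genes of the log2 difference, Wt S minus Wt cycling, with 1 probe per gene, and at the right the number of genes with a probe called higher, called lower, and tested. Sterol synthesis has the lowest median (-0.94, 6 of 18 lower) and the macrophage and leukocyte markers the highest (2.21, none of 13 called).

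Several inflammatory genes were higher in S. NF-kB is a factor that turns on chemokines, adhesion molecules and enzymes of inflammation. Of 29 tested genes of this list 7 rose, with a median of 0.57. Icam1, an adhesion molecule for leukocytes, was at 7.21, 6.41 and 6.98 in cycling cells and at 10.17 and 10.07 in S (difference 3.25 ± 0.55, adjusted p = 0.00838), and it was higher in S than in G1 as well (2.54, adjusted p = 0.0375). Ptges, an enzyme of prostaglandin E2 synthesis, was at 5.78, 6.21 and 5.52 and at 7.56 and 7.51 (difference 1.70 ± 0.32, adjusted p = 0.0148), while its other probe differed by 0.09. Tnfaip2, induced by tumour necrosis factor, differed by 1.08 (adjusted p = 0.0171). Besides Mmp3, the list's other calls, named after their values were seen, were the chemokine gene Ccl2 (1.5), the pentraxin gene Ptx3 (1.54) and the NF-kB subunit gene Relb (0.94).

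Of 29 tested genes of the interferon response and antigen presentation 3 rose and none fell, with a median of 0.58. Cxcl10, a chemokine, was at 4.65, 4.96 and 5.5 in cycling cells, detected on 1 of 3, and at 7.17 and 7.43 in S (difference 2.26 ± 0.43, adjusted p = 0.0149). Rsad2, which encodes the antiviral protein viperin, was also detected on 1 of 3 cycling arrays and differed by 1.98 (adjusted p = 0.0148). Gbp2, a guanylate-binding protein, was at 8.22, 7.96 and 8.60 and at 10.16 and 10.09 (difference 1.87 ± 0.44, adjusted p = 0.04). Irgm1, an interferon-induced GTPase, ran the other way without passing the test, at 10.23, 10.22 and 10.45 and at 8.58 and 8.79 (difference -1.62, adjusted p = 0.0614).

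Markers of macrophages and leukocytes moved with these genes. Of the 18 markers 15 have a probe, 10 were detected on all 5 arrays, and 13 were tested. None of the 13 was called, but all 13 lay higher on both S arrays than on every cycling array, with a median difference of 2.21. Of all 12078 probes tested, 2371 lay higher in this way. Their mean level was 8.63, 8.66 and 7.61 in cycling cells and 10.56 and 10.59 in S. In G1 it was 11.34 on replicate 1 and 7.79 and 7.92 on replicates 2 and 3. In knockout cells it was 9.53, 9.50 and 7.70 on the cycling arrays and 9.86 and 9.88 on the S arrays. Within each genotype the arrays with Xist detected had the lowest means, and both S arrays were among those without it. The part of the culture in these levels was not tested. The markers given here were chosen after their values were seen. Adgre1, which encodes a surface antigen of macrophages, was at 9.42, 9.69 and 9.73 and at 12.17 and 12.33 (adjusted p = 0.226). C1qb, a complement chain, was at 9.47, 9.32 and 6.65 and at 11.65 and 11.32. Ptprc, which encodes the leukocyte antigen CD45, was detected on no cycling array and at 5.6 and 6.09 in S, and Cd74 was detected on none of the 5 arrays. In bulk RNA, more cells of a type and more RNA per cell cannot be told apart, and the part of such cells in the rises of inflammatory genes was not tested. With slide as a term the markers' median was 1.09, and without cycling replicate 3 it was 1.98. Myeloid genes outside the list that were called, named after their values were seen, include Siglec1 (at least 2.38-fold higher, adjusted p = 0.0399) and Gpr84 (difference 2.53, adjusted p = 0.0273). Mmp3 and Serpina3n, 2 of the 18 named genes called with slide as a term, were at 11.74 and 6.77 on Wt_G1 replicate 2. The marker mean was 7.79 there, and both genes lay above each of their cycling values. Serpina3n lay below both of its S values there. Slpi and Cdsn, also called with slide, lay below both of their S values on every wild-type G1 array. The part of macrophages in these differences was not tested.

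Markers of other tissues gave 1 call. Detected on all 5 arrays were 3 endothelial, 3 skeletal muscle, 3 neural, 2 cartilage or bone and 1 adipocyte marker, and 0 epithelial markers. Of the endothelial markers 5 were tested and none called, and of the epithelial markers 4 were tested and 1 rose. This was Krt14, a keratin of basal epithelium, which was detected on no cycling array and at 6.58 and 6.24 in S, at least 1.78-fold higher (adjusted p = 0.00855). Skeletal muscle, neural, adipocyte and cartilage or bone markers had 5, 3, 3 and 2 tested genes with no call, and none of the erythroid markers was tested. The adipocyte marker Lpl, lipoprotein lipase, which macrophages also make, was at 8.85, 9.21 and 9.28 in cycling cells and at 11.92 and 12.07 in S (adjusted p = 0.153). On the G1 arrays it was at 13.17, 9.01 and 8.98, high on replicate 1, the array on which the macrophage marker mean was also high. The part of macrophages in the Lpl levels was not tested.

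Antioxidant genes under the factor Nrf2 rose at 3 of 21 members and fell at none, with a median of 0.38. Srxn1, which repairs oxidised peroxiredoxins, was at 9.71, 9.64 and 9.07 in cycling cells and at 11.30 and 11.17 in S (difference 1.76 ± 0.22, adjusted p = 0.000887), with all 3 probes called. Gclm, a subunit of the enzyme that starts glutathione synthesis, and Gstm1, a glutathione transferase, differed by 1.03 and 1.06 (adjusted p of 0.0311 and 0.0415). Without cycling replicate 3 the list's median was 0.13. Srxn1 missed the threshold with slide as a term (adjusted p = 0.0827).

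Genes tied to quiescence were mixed. Of 27 tested, 4 rose and 1 fell, with a median of 0.15. Besides Lum, Dcn and the fall of Irs2 given above, Txnip, which binds thioredoxin and responds to glucose, was at 8.41, 8.74 and 8.55 in cycling cells and at 10.55 and 10.47 in S (difference 1.94 ± 0.28, adjusted p = 0.00308). Txnip was also higher in S than in G1, by 1.69 (adjusted p = 0.0128). Gas7, a growth arrest gene named after its values were seen, differed by 1.01 (adjusted p = 0.0433). Of 32 immediate early genes, induced within minutes by serum, only Fosl1 was called, at 6.33, 5.95 and 6.14 and at 7.23 and 7.09 (difference 1.02 ± 0.25, adjusted p = 0.049). Dusp2, a phosphatase of the same list, was detected on 2 of 3 cycling arrays and on no S array, and was not called (adjusted p = 0.141).

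No gene was called on the lists of proteasome (29 tested), ribosome biogenesis (30), mitochondrial ribosomal proteins (68), heat shock (14), endoplasmic reticulum chaperones (16), DNA repair (28), splicing (37), actin and smooth muscle (27), lysosome and autophagy (32), variant histones (8) and chromatin and HMG proteins (22). Their medians ran from -0.23 for DNA repair to 0.10 for mitochondrial ribosomal proteins. In the last of these lists, Hmga2, an architectural chromatin protein of the embryo, was at 7.11, 7.27 and 7.91 in cycling cells and at 6.61 and 6.51 in S (difference -0.87, adjusted p = 0.289). The lowest adjusted p on these lists was that of the RNA-binding protein gene Hnrnpf (difference -0.90, adjusted p = 0.0521). The Y-linked genes Kdm5d and Uty differed by 0.85 and 0.33, Kdm5d being at 4.53 on cycling replicate 3 and from 7.68 to 7.98 on the other 4 arrays.

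The fit with slide as a term called 18 named genes, 17 higher and 1 lower, and all were also called without it. Those not yet given, apart from Pi16, are named after their values were seen. Itm2a, a membrane protein, was at 9.39, 9.66 and 9.89 in cycling cells and at 12.83 and 12.85 in S (difference 3.20, and 2.78 with slide, adjusted p = 0.0413). Cpxm1, of the carboxypeptidase family, differed by 2.49 and by 2.29 with slide (adjusted p = 0.0224). Esm1, a proteoglycan of endothelial cells, differed by 2.16 and by 2.02 with slide (adjusted p = 0.0413). Vgf, a neuropeptide precursor, and Lypd1, of a family of membrane-anchored proteins, were detected on no cycling array and were at least 2.88-fold and 2.56-fold higher. Cdsn, an adhesion protein of the epidermis, differed by 2.16 and was at 4.93, 5.80 and 5.62 in G1, below both S values of 7.32 and 7.42. Slpi, an inhibitor of leukocyte proteases, was at 6.39 and 6.49 in S, at least 1.82-fold higher than in cycling cells, and from 5.04 to 5.32 in G1. Pi16, a peptidase inhibitor of fibroblasts, was detected on no cycling array and was at 6.77 and 6.38 in S, at least 1.99-fold higher (adjusted p = 0.000212). The 1 fall was Alg9, a mannosyltransferase of protein glycosylation, at 7.93, 7.85 and 8.04 and at 7.12 and 7.02 (difference -0.87, and -1.34 with slide, adjusted p = 0.0413).

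The knockout arrays give the same contrast in other samples, on the same layout of slides. There S differed from cycling at 206 probes (1.71%), 136 higher and 70 lower. Of the 298 probes called in wild-type cells, 290 (97.3%) had the same direction in the knockout, against 62.6% of all probes tested. Of these, 97 were also called in the knockout, and at 255 the knockout arrays did not overlap in that direction. The share of all probes without overlap in the knockout is not given, so the 255 cannot be set against it. The differences of all probes correlated at a Pearson r of 0.529 across probes, which are not independent and share the slide layout. Lum differed by 5.01 in the knockout (adjusted p = 0.00011), Mmp3 by 2.21 (adjusted p = 0.000529), Timp3 by 2.26 (adjusted p = 0.000272) and Cdkn1a by 1.25 (adjusted p = 0.0059). None of the 9 lipid genes was called there. Insig1 differed by -0.34 (adjusted p = 0.581), Elovl6 by -1.02 (adjusted p = 0.0922) and Cyp51 by 0.34 (adjusted p = 0.555), and the sterol list had a median of -0.29. In this genotype 3 mitosis genes were called lower, and the list's median was -0.60.

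The difference between the genotypes in this contrast was tested itself, and limma called no probe (0%), with 560 at an unadjusted p under 0.05. The genes of lowest p were Pi16, higher in S by 2.03 in wild-type and by 0.23 in knockout cells (difference of the changes 1.80, adjusted p = 0.11), and Cxcl15, by 4.82 and 1.72 (3.10, adjusted p = 0.11). Aoc3, a vascular amine oxidase, followed with 0.75 and -1.27 (2.02, adjusted p = 0.338), and then Hpdl (-1.56), Tgfbi (1.43) and Serpina3n (1.80). The Cxcl15 arrays rose in both genotypes, while Pi16 was called in the wild-type cells and not in the knockout, a contrast that the test of the difference did not bear out at this threshold.

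**Figure D5:**
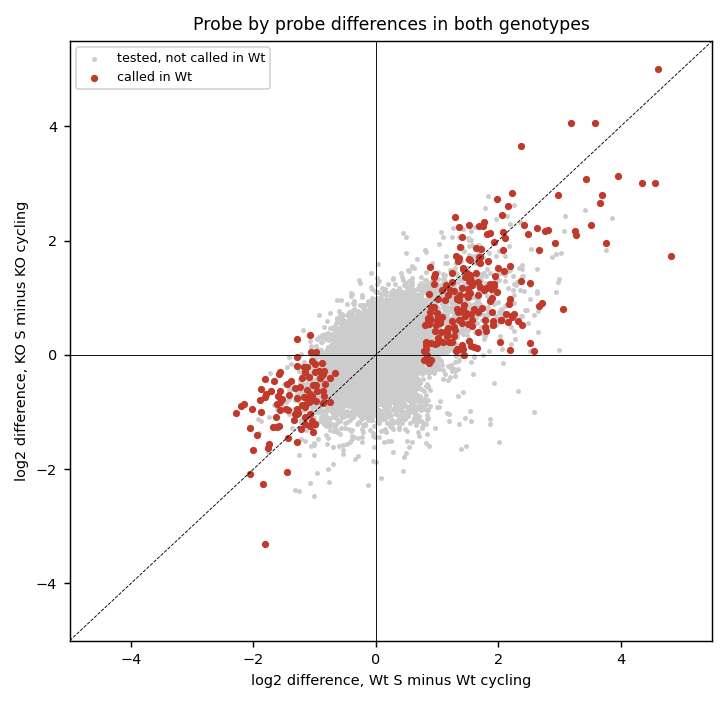
Log2 difference of S from cycling in wild-type cells (x axis) and in knockout cells (y axis) for each of 12078 probes; the dashed line marks equal differences. The 298 probes called in wild-type cells, chosen on the x axis, lie on the same side of 0 in the knockout in 290 cases.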

How the data were processed

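Total RNA was extracted (mirVana) and labelled as biotinylated cRNA, per the labels' protocols, and hybridised to mouse Illumina bead arrays. Arrays were read with BeadStudio 3.0, per the submitters' processing notes. The authors deposited the average probe intensity and the detection p-value of 25697 probes on each of 16 arrays without normalization, per the file headers. The authors' value table, of linear intensity with nearly 1 distribution on every array and no stated method, served as an alternative. No genome build or normalization method is given in the sources used here.

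Intensities were background-corrected, offset by 16 and quantile normalized on the log2 scale with neqc (limma 3.58.1, statmod 1.5.0, R 4.3.3). The 12078 probes tested, of 8428 genes, had detection p under 0.01 throughout 1 or more of the 6 groups. Symbols came from the platform annotation, updated through Entrez IDs: 23978 probes have 1 symbol and 1719 none. All 16 arrays entered 1 limma model with a coefficient per group and a shared estimate of spread. Tests were two-sided with Benjamini-Hochberg adjustment over all probes, and the script was checked on simulated data. A list's median uses the brightest probe of each gene, and its counts any probe. "At least" marks a fold against the lowest detected level where no array of the lower group detected the probe. No pairing of S with cycling arrays by replicate number is known, and the model used none.

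The genes named are the 12 largest rises and 12 largest falls among called probes without overlap, the 4 genes of lowest p of each list (2 for short lists), all genes of the E2F, G1 regulator and Y-linked lists, Hmgb1, and the 6 of lowest p in the genotype difference. Others are marked in the text. Members and lists were chosen with earlier results of these data known. Alternatives changed the normalization, probe filter, blocks, weights and arrays used. Precision is limited by how many arrays there are.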

Additional observations from a re-analysis of the deposited data

Results flagged for a closer look

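Of the named genes, 15 had S and cycling arrays that did not overlap in either genotype and went in opposite directions. The limma test of the difference called none. The adjusted p was 0.338 for Aoc3 and 0.899 for each of the other 14, and within a genotype only Aoc3 in the knockout was called. The log2 difference of the wild-type change from the knockout change was 2.02 for Aoc3, which fell in the knockout (-1.27, adjusted p = 0.0286) and differed by 0.75 in wild-type cells (adjusted p = 0.171).

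Above 0 were also H2ac11 (3.55), Cox6a1 (1.52), Rpl38 (1.39), Mylk (1.34), Rpl31 (1.26) and Rpl37 (1.22). H2ac11, Cox6a1 and the 3 ribosomal protein genes were lowest on cycling replicate 3 in wild-type cells. Below 0 were Wnt5a (-1.21), Rora (-1.08), the proteasome genes Psmc1 (-0.75), Psmd11 (-0.75) and Psmc5 (-0.57), the mitochondrial chaperone genes Hspd1 (-0.74) and Hspa9 (-0.70), and E2f4 (-0.67). Groups of 2 and 3 arrays often do not overlap here (42.2% of probes in wild-type cells).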

How the results depend on the processing

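The count of 298 probes called between S and cycling cells was 250 to 311 with median scaling, the authors' table, no background correction, an intensity trend or all probes tested. It was 186 over probes detected on all 16 arrays, of which 54.3% were higher, against 67.1% in the fit as reported. It was 21 with slide as a block, 26 with the slide and replicate block, 4753 with array weights, 1232 without the 2 arrays that stood apart (Wt_cycling replicate 3 and KO_G1 replicate 1), 166 on the 8 wild-type arrays alone and 1191 on the 5 arrays alone with a replicate block. Without a block the 5 arrays alone gave 445, with 361 higher and 84 lower, of which 185 were among the 298, and 17 of 61 named probes lost their call. Of alternatives chosen after seeing the data, averaging the S arrays gave 16, arrays with Eif2s3y detected 2828, leaving out the G1 arrays numbered 1 gave 1751, and slide as a block without those gave 348, of which 158 were among the 298. Leaving out 1 array gave 28 to 259: 36 without Wt_S replicate 1, 28 without Wt_S replicate 2, 146, 162 and 202 without Wt_cycling replicates 1, 2 and 3, and 165 to 259 without a knockout array.

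The genotype difference had no call as reported. It had 2 with the authors' table, 2 with no background correction, 1 with the slide and replicate block and 1868 with array weights. It had 69 without the 2 arrays that stood apart, 372 on arrays with Eif2s3y detected and 13 without the G1 arrays numbered 1. Slide as a block without those gave 2, and leaving out 1 cycling array gave 0 to 1. Same-numbered S and cycling arrays deviated from their group means with correlations of 0.0396 and 0.0175. With 2 S arrays their deviations mirror each other, and cycling replicate 3 stood apart, so this cannot decide whether the replicate numbers pair arrays. The replicate block called 229 probes, of which 213 were shared. No named gene that was called reversed. Of 60 such genes, 9 stayed called in each alternative in which they were tested: Cxcl15, Ecrg4, Fibcd1, Lum, Mfap4, Mmp3, Pi16, Serpina3n and Tgfbi. The median over all genes stayed between -0.018 and 0.0256. Where counts moved, the cause was not tested.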

Other observations

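A probe without a gene symbol, ILMN_1253772, was at 5.49, 5.59 and 5.55 in cycling wild-type cells and at 8.02 and 8.24 in S (difference 2.58, adjusted p = 0.000369). In the knockout S arrays it was at 4.93 and 5.25, and on all G1 arrays of both genotypes at or below 6.01. It had the lowest p of all probes in the test of the genotype difference (2.51, adjusted p = 0.11), and it stayed called with slide as a term (adjusted p = 0.0384).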
